A study of Mus musculus with 2 samples.

Results

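The TGF-beta receptors and their Smad pathway were described here through 10 genes, read by 24 probe sets. They were taken by name as every probe set of the array whose single annotated symbol was Tgfb1, Tgfbr1, Tgfbr2, Tgfbr3, Smad2, Smad3, Smad4, Smad7, Ski or Skil. The array holds 18193 genes named in this way, and 45037 probe sets that are not controls. One sample was a preparation of naive gamma/delta T cells labelled CD44-, and the other a preparation of naive alpha/beta T cells that carry CD8, named CD8+ cells from here on. Both preparations came from lymph nodes of C57BL/6 mice by negative selection, with no genotype change or treatment labelled, and each was read on 1 Affymetrix MOE430 2.0 array. Neither age nor the number of mice pooled is given in the sources used here. With 1 array a group there was no replicate, no error of a ratio between samples and no test, so each value compares these 2 preparations.

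TGF-beta is a cytokine that holds T cells in check and also takes part in the formation of several T cell types, among them cells that make IL-17. The ligand is secreted in a latent form. Once freed, it binds the type II receptor Tgfbr2, which brings in and phosphorylates the type I receptor Tgfbr1. Tgfbr1 phosphorylates the receptor-regulated Smads, Smad2 and Smad3, which join the common partner Smad4 and enter the nucleus. Smad7 blocks the receptors, and the corepressors Ski and Skil (SnoN) bind Smads on DNA, so these 3 genes act as brakes. Transcription of Smad7 and Skil is itself raised by the pathway.

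In gamma/delta cells the transcripts of Smad3 and of the coreceptor Tgfbr3 were higher and those of Smad4 were lower than in CD8+ cells. Smad3 was 3.03-fold higher by its brightest probe set, Tgfbr3 2.22-fold higher, and Smad4 between 2.62-fold and 3.79-fold lower over its 3 probe sets. The signalling receptors Tgfbr1 and Tgfbr2 differed by less than 2-fold by their brightest probe sets, and Tgfb1 gave no usable signal on either. Of the 24 probe sets, 6 lay on both arrays under the floor, a signal of 243.3 set at the median of the array, and have no ratio. One more lay under it in CD8+ cells and has a bound. Signals under the floor carry little order in MAS5 values, and they do not show that a transcript is absent.

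Of the 18 probe sets with a ratio, 2 were higher in gamma/delta cells by 2-fold or more and 3 were lower by as much. Over all 26402 probe sets with a ratio, the shares were 4.68% and 3.99%. The 3 lower ones all belong to Smad4, and a count so small cannot be set apart from the background. Over the 18 the median log2 ratio (gamma/delta over CD8+) was -0.05, against 0.00 over all probe sets with a ratio, and 9 of the 18 lay above 0 and 9 below. Members with both signals at 1000 or more numbered 9, of which 1 was higher by that margin and 2 were lower. Among all 4979 probe sets that bright on both arrays the shares were 3.21% and 4.94%. The genes went in both directions.

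**Figure D1:**
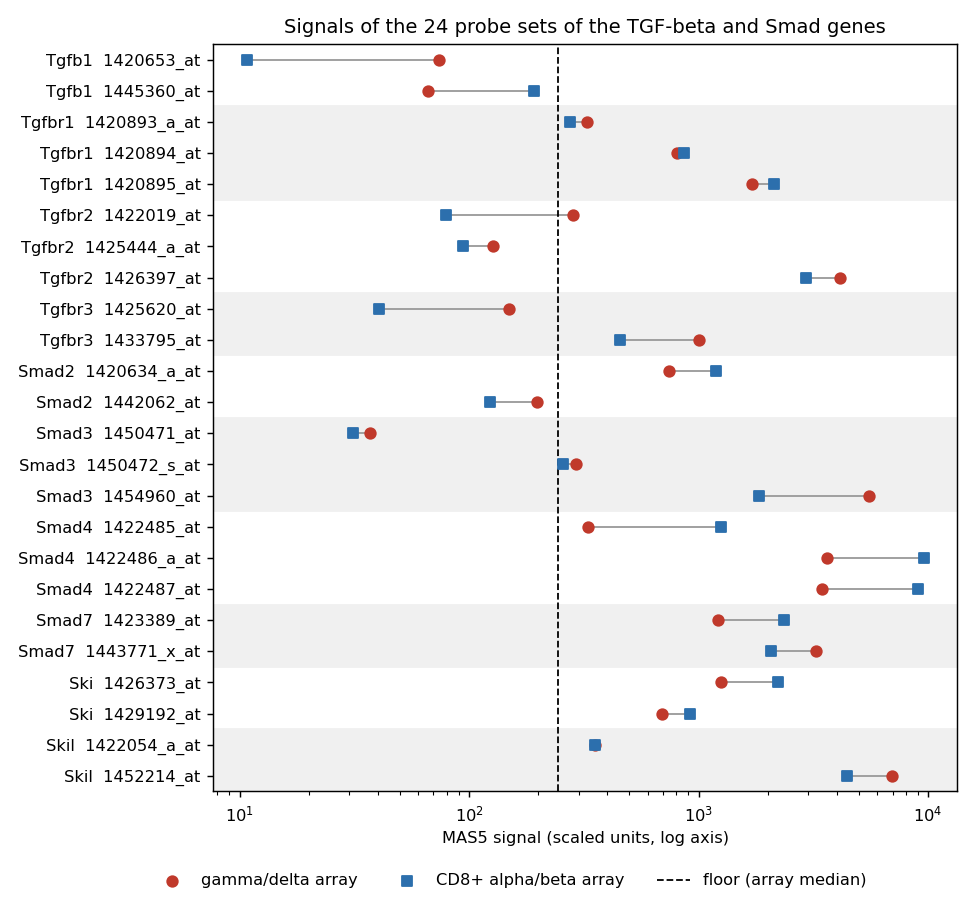
MAS5 signal (log axis, scaled units) of each of the 24 probe sets, with a circle for the gamma/delta array, a square for the CD8+ array and a dashed line at the floor of 243.3. The squares of Smad4 lie to the right of the circles in all 3 probe sets, and both probe sets of Tgfb1 lie left of the line on both arrays.

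The only spread that can be measured within these data is that between probe sets of 1 gene on the same pair of arrays. It came to a pooled SD of 0.50 in the log2 ratio over the 3317 genes that had 2 or more probe sets measured above the floor on each array. It is a technical spread and does not stand for the variation between animals or preparations. Of the 7 member genes with at least 2 probe sets with a ratio, Tgfbr1 and Smad7 had probe sets of opposite sign. That is 28.6% of the 7, while 52.8% of all 4890 such genes on the array had probe sets of opposite sign. A count of 2 in 7 is too small to be set apart from that share. It also depends on a probe set of Skil at a log2 ratio of 0.0025. Under median scaling, quantile normalization and loess that probe set read -0.0051, -0.0243 and -0.0209.

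Some facts of the arrays bear on every value. The 3′ to 5′ signal ratio of actin, a sign of RNA integrity, was 6.99 in gamma/delta cells against 3.12 in CD8+ cells, while those of Gapdh (3.06 and 3.24) and the transferrin receptor (3.97 and 4.47) were slightly lower in gamma/delta cells. Its part in the ratios was not tested. Markers of the labelled cell types were read too. The 4 gamma/delta markers with a probe set (Trgv4, Trgv1, Sox13 and Cd163l1) were higher in gamma/delta cells by 2-fold or more, and Cd8a and Cd8b1 were lower. Cd8a still read 731.1 in gamma/delta cells. Of 5 general T cell markers, Cd3g (8062 in gamma/delta and 3486 in CD8+ cells) and Thy1 (5861 and 2724) were over 2-fold higher in gamma/delta cells. Cd3e was 1.74-fold higher, while Cd3d and Cd247 were level by their brightest probe sets (log2 ratios -0.03 and -0.04). A dim probe set of Cd247 was 2.19-fold lower in gamma/delta cells. Of the lists for other cells, 4 of 5 platelet markers read below the floor on each array, with summed signals of 708.1 in gamma/delta and 644.9 in CD8+. The same held for 6 of 8 myeloid and dendritic markers (sums of 1215 and 857.4), 2 of 5 B cell markers (4592 and 3800), 2 of 8 stromal and endothelial markers (3686 and 3483), 2 of 3 NK markers (388.0 and 459.3) and 2 of 4 markers of CD4 and regulatory T cells (1113 and 1006). Of these 6 lists, no marker with a ratio was called at 2-fold, some of them as bounds, and markers under the floor on both arrays have no ratio. The B cell sums came mostly from Ebf1 (3331 and 2650) and Ms4a1 (858.2 and 616.0). In such bulk preparations fewer cells of a type and less RNA per cell cannot be told apart.

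The ligand Tgfb1 encodes the main TGF-beta of the immune system. Its probe set 1420653_at read 73.8 in gamma/delta cells and 10.8 in CD8+ cells, and 1445360_at read 66.5 and 192.0. All 4 signals lay under the floor, and the probe sets pointed in opposite directions. No level and no difference can be given for Tgfb1 from this array.

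Tgfbr1 encodes the type I receptor kinase. The probe set 1420895_at read 1708 in gamma/delta and 2124 in CD8+ cells, a log2 ratio of -0.31. The probe set 1420894_at read 806.4 and 865.0 (log2 ratio -0.10), and 1420893_a_at read 327.4 and 276.4 (log2 ratio 0.24). The annotation traces all 3 to 1 source record, so they are not independent readings, and their ratios of both signs span 0.56 on the log2 scale. By each of them Tgfbr1 was measured at 1.24-fold or less between the cell types.

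Tgfbr2 encodes the type II receptor kinase, which binds the ligand first. The brightest probe set, 1426397_at, read 4125 in gamma/delta cells and 2935 in CD8+ cells, 1.41-fold higher in gamma/delta (log2 ratio 0.49). The probe set 1422019_at read 283.6 and 79.5, at least 1.17-fold higher. Under the floor on both arrays, 1425444_a_at read 127.2 and 93.9. Both probe sets of Tgfbr2 with a ratio were higher in gamma/delta cells, 1 of them as a bound, and the measured ratio was under 2-fold. By the brightest probe sets the log2 ratio of Tgfbr2 exceeded that of Tgfbr1 by 0.81. The dimmest probe sets with a ratio gave 0.22 for Tgfbr2, as a bound, and 0.24 for Tgfbr1. The pooled SD of 0.50 gives a spread of 0.71 for a difference between probe sets of 1 gene. This spread holds no variation between preparations.

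Tgfbr3 encodes betaglycan, a coreceptor with no kinase that presents the ligand to Tgfbr2. The probe set 1433795_at read 1007 in gamma/delta and 453.9 in CD8+ cells, which is 2.22-fold higher (log2 ratio 1.15). Of all probe sets with a ratio, 3.08% had a higher one. The probe set 1425620_at read 149.8 and 40.6, both under the floor, and has no ratio. The difference thus rests on 1 probe set. With the log2 signals of both averaged, the one under the floor included, the CD8+ mean fell under the floor and the log2 ratio was at least 0.67. With the linear signals averaged it was 1.23.

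**Figure D2:**
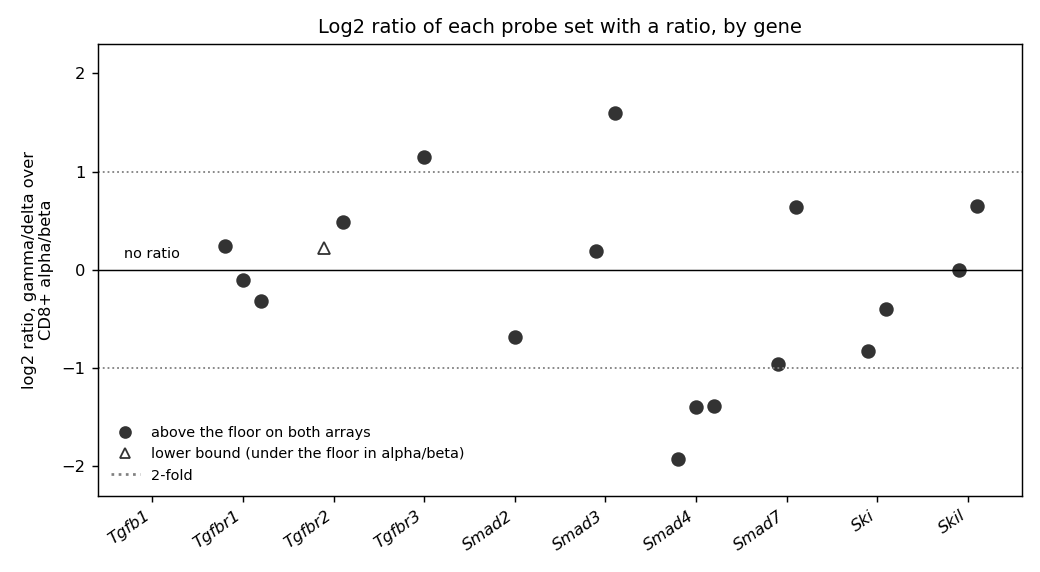
Log2 ratio of gamma/delta to CD8+ signal for the 18 probe sets with a ratio, by gene, with circles for values measured on both arrays, an open triangle for the 1 bound and dotted lines at 2-fold. Smad4 lies below the lower line in all 3 probe sets, Smad3 and Tgfbr3 have 1 probe set each above the upper line, and Smad7 has 1 probe set on each side of 0.

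The receptor-regulated Smads went opposite ways by their brightest probe sets. Smad3 read 5548 in gamma/delta and 1832 in CD8+ cells by 1454960_at, 3.03-fold higher (log2 ratio 1.60), and 1.03% of all probe sets had a higher ratio. A dimmer one, 1450472_s_at, read 292.4 and 256.4, close to the floor on both arrays, with a log2 ratio of 0.19. The last, 1450471_at, read 37.0 and 31.2, under the floor. Of the 2 probe sets of Smad3 with a ratio, both were higher in gamma/delta cells, and the bright one alone at 2-fold. The mean of the linear signals of all 3, which the bright one dominates, gave a log2 ratio of 1.47, and the mean of their log2 signals, the pair under the floor included, gave 0.68.

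Smad2 read 739.8 in gamma/delta and 1187 in CD8+ cells by 1420634_a_at, 1.60-fold lower in gamma/delta (log2 ratio -0.68). The other probe set, 1442062_at, read 198.0 and 123.1, both under the floor. The log2 ratio was -0.48 from the mean of the linear signals of the 2 and 0.00 from the mean of their log2 signals. The direction of Smad2 therefore rests on 1 probe set. By the brightest probe sets the log2 ratio of Smad3 exceeded that of Smad2 by 2.28.

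Smad4, the partner shared by the receptor-regulated Smads of the TGF-beta and BMP branches, was lower on all 3 of its probe sets. It read 3623 in gamma/delta and 9565 in CD8+ cells by 1422486_a_at, 2.64-fold lower in gamma/delta (log2 ratio -1.40). By 1422487_at it read 3445 and 9031, 2.62-fold lower (log2 ratio -1.39), and by 1422485_at 329.0 and 1247, 3.79-fold lower (log2 ratio -1.92). Of all probe sets with a ratio, 1.07%, 1.11% and 0.216% had a lower one. The annotation gives 1 source record for the 3, so they read the same transcript sequence and are not independent.

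Genes with 3 or more probe sets with a ratio numbered 2005, and 11 of them (0.549%) had every such probe set lower in gamma/delta cells by 2-fold or more, Smad4 among them. This count was made after the values of Smad4 were seen. Under every scaling, floor and probe set rule tried, the log2 ratio of Smad4 lay between -1.57 and -1.28. The other floors could not move this value, since both signals of the probe set used lay above them. The log2 ratio of Smad3 by its brightest probe set was 1.60 and that of Smad4 -1.40, so within this pair of arrays the balance of Smad3 to Smad4 signal differed between the 2 preparations.

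**Figure D3:**
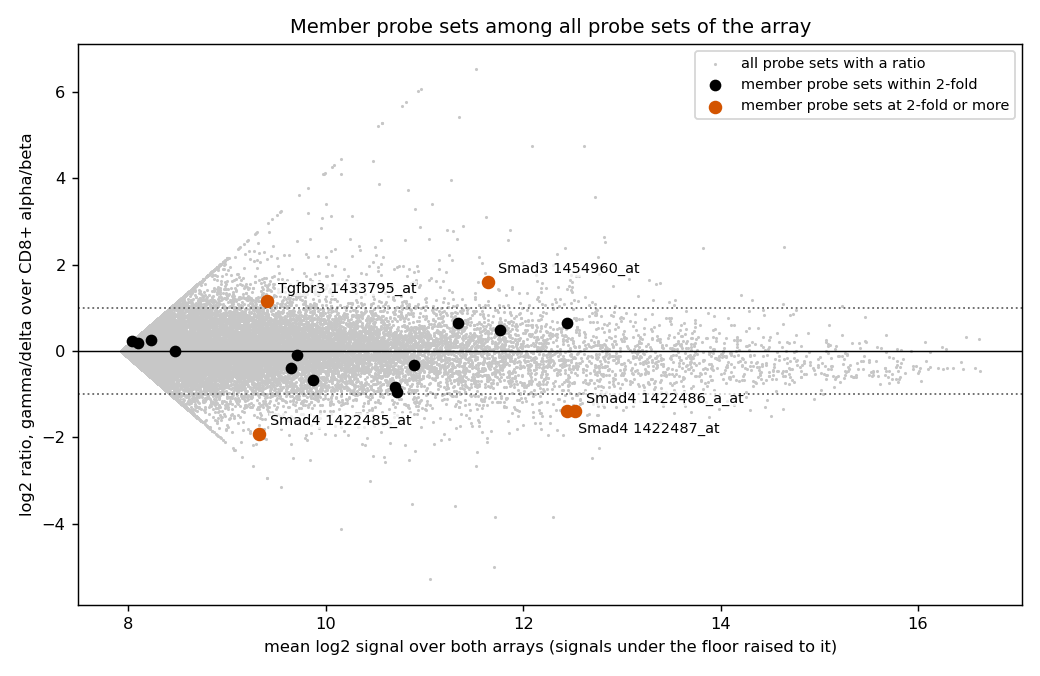
Log2 ratio of gamma/delta to CD8+ signal (y axis) against the mean log2 signal of both arrays (x axis) for all 26402 probe sets with a ratio (grey), with member probe sets within 2-fold in black and the 5 at 2-fold or more in orange with their names. The bright probe sets of Smad3 and Smad4 lie at the upper and lower edge of the cloud for their signal, and most other members lie inside it.

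The brakes of the pathway gave no common direction. Smad7 read 1212 in gamma/delta and 2349 in CD8+ cells by 1423389_at, 1.94-fold lower in gamma/delta (log2 ratio -0.96). By 1443771_x_at it read 3241 and 2075, 1.56-fold higher (log2 ratio 0.64). The ending _x_at marks a probe set some of whose probes match other sequences as well. The 2 readings of Smad7, both well above the floor, disagree by 1.60 on the log2 scale, so no direction can be given. The annotation traces both to 1 source record, so probe sets of 1 record can disagree by this much.

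Ski, the corepressor first found as a viral oncogene's cellular counterpart, read 1250 in gamma/delta and 2225 in CD8+ cells by 1426373_at (1.78-fold lower, log2 ratio -0.83). By 1429192_at it read 695.7 and 917.6 (log2 ratio -0.40). Both probe sets of Ski were lower in gamma/delta cells and neither reached 2-fold. Its relative Skil read 6976 in gamma/delta and 4446 in CD8+ cells by 1452214_at (1.57-fold higher, log2 ratio 0.65), and 354.3 and 353.7 by 1422054_a_at (log2 ratio 0.00). By the brightest probe sets the log2 ratio of Skil exceeded that of Ski by 1.48, while the dimmer ones gave 0.00 and -0.40. The technical spread of 0.71 holds no variation between preparations, so it cannot show whether this difference would recur.

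The promoters of 5 of the 10 genes were in the RefSeq table of build GRCm38.p6. Those of Smad3 and Tgfbr2, whose transcripts had the higher readings in gamma/delta cells, and of Ski, whose transcript had the lower ones, are printed to show the DNA at which these transcripts start. Each runs 5′ to 3′ on the gene's own strand from 250 bases before to 50 bases after the annotated start. All 3 genes lie on the minus strand, Smad3 at chr9:63757945-63758244, Tgfbr2 at chr9:116175314-116175613 and Ski at chr4:155222486-155222785. Capitals mark the letters CAGAC, the short Smad-binding motif, on either strand.
Smad3: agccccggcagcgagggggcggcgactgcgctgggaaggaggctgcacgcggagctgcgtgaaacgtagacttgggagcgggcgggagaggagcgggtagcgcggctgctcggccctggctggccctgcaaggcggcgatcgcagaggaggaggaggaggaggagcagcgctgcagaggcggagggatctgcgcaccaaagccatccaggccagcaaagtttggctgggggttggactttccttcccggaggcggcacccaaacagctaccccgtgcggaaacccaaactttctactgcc
Tgfbr2: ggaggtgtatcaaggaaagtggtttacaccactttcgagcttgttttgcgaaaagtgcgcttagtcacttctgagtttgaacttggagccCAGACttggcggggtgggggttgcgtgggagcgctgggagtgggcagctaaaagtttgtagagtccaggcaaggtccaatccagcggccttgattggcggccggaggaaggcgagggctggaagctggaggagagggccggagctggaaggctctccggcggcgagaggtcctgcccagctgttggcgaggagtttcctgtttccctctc
Ski: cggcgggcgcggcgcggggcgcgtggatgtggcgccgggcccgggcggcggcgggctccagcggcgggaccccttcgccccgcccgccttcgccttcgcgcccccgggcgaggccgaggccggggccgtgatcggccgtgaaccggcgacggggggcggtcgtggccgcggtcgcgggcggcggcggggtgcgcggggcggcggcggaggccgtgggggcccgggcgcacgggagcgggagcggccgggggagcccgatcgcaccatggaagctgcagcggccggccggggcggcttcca

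These windows are rich in G and C, at 67.7% for Smad3, 59.0% for Tgfbr2 and 85.3% for Ski, against a median of 52.7% over all promoters of the table. Of the 3 printed, CAGAC was found in Tgfbr2 alone, starting 160 bases before the annotated start. It was also in 1 window of Tgfbr1, starting 203 bases before that start, so that 2 of the 6 windows of the 5 genes hold it. Among all 32851 promoters of the same length, 49.6% hold it on one strand or the other. The palindrome GTCTAGAC, which contains the motif's core, was in none of the 3 windows and in 0.213% of all promoters. The Runx motif TGTGGT was in none of the 3 and in 16.8% of all. A match is a description of the letters and the arrays measured no binding.

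The rest of the pathway was followed through 65 further genes in 4 lists, with 1 value a gene from the probe set with the highest mean signal. Of the 62 on the array, 51 had a ratio. At 2-fold or more, 1 was higher in gamma/delta cells and 2 were lower, where 5.82% of all 11914 genes with a ratio were higher and 3.93% were lower. Their median log2 ratio was 0.04, against 0.03 over all genes. Of the 10 member genes, 9 had a ratio by the same rule, with 2 higher and 1 lower.

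Ligands, latency proteins and activators (12 of 19 with a ratio) had a median log2 ratio of 0.22, against 0.03 over all genes. Above 0 were 11, and none passed 2-fold. Of the 11, Tgfb3, Bmp7 and Ltbp4 were bounds that passed the floor in gamma/delta cells alone, which fixed their sign. Furin, the protease that cuts the TGF-beta precursor, read 1872 in gamma/delta and 1823 in CD8+ cells. Nrros, which anchors latent TGF-beta on the cell surface, read 464.7 and 284.7 (log2 ratio 0.71), and Tgfb2 read 1244 and 855.1 (log2 ratio 0.54) with another probe set at -0.82. The integrin chain Itgav read 7616 and 6909 by its brightest probe set, while a dim one read 270.9 and 592.0, 2.19-fold lower. None of these genes differed 2-fold by the probe set used.

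Other receptors of the family (14 of 15 with a ratio) had a median of -0.01, and none passed 2-fold by the probe set used. Dimmer probe sets did for 3 of them. That of Acvr1c was higher by at least 2.07-fold, that of Bmpr1a was 2.25-fold lower, and that of Fkbp1a was lower by at least 2.77-fold. Acvr2a, a type II receptor for activins, read 10609 in gamma/delta and 6195 in CD8+ cells, a log2 ratio of 0.78. Bambi, a decoy receptor without a kinase, read 341.8 and 6.56, higher by at least 1.40-fold in gamma/delta cells.

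**Figure D4:**
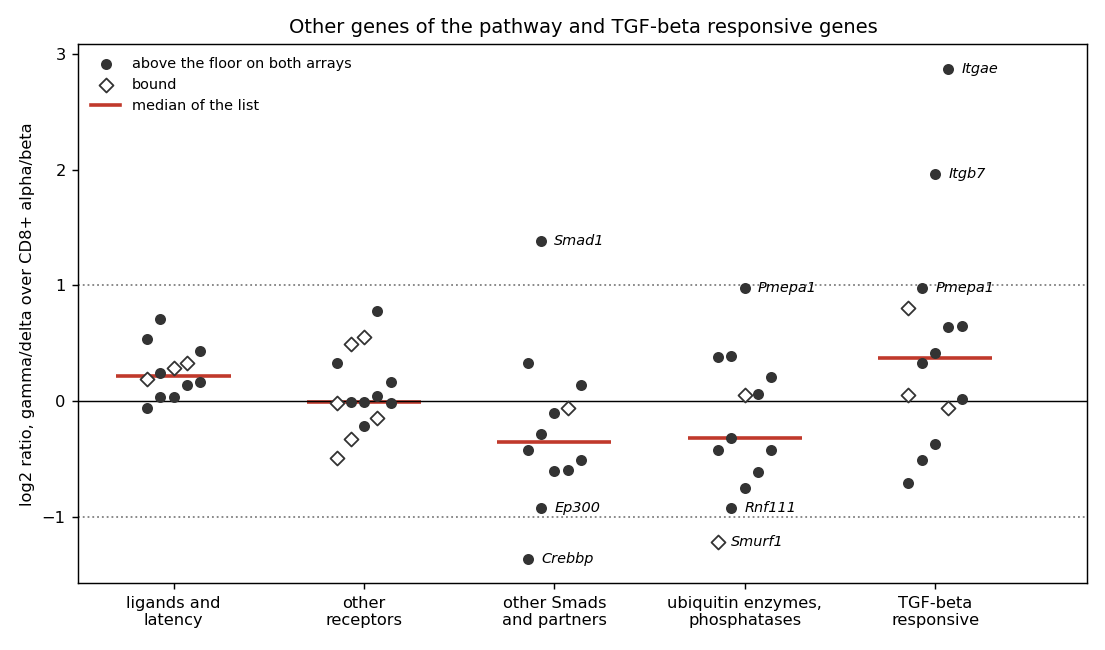
Log2 ratio of gamma/delta to CD8+ signal for the genes of 5 lists with a ratio (filled circles measured on both arrays, open diamonds bounds, red bars medians, dotted lines 2-fold). Names are given where the log2 ratio was beyond 0.9 in either direction: Smad1, Itgae and Itgb7 lie above the upper line, Crebbp and Smurf1 below the lower one.

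Other Smads, adaptors and partners (12 of 15 with a ratio) had a median of -0.35, with 9 below 0. Of the 9, Smad6 was a bound that passed the floor in CD8+ cells alone, which fixed its sign. Smad1, a receptor-regulated Smad of the BMP branch, read 9307 in gamma/delta and 3579 in CD8+ cells by 1459843_s_at, 2.60-fold higher. By 1448208_at it read 2257 and 1756, a log2 ratio of 0.36, and by 1416081_at it lay under the floor. Crebbp, an acetyltransferase that Smads recruit, read 12511 in gamma/delta and 32179 in CD8+ cells, 2.57-fold lower. Crebbp was also lower by 2 more probe sets (log2 ratios -1.31 and -1.15), and another, at 276.3 and 188.2, was at least 1.14-fold higher. Its paralogue Ep300 read 2146 and 4060, a log2 ratio of -0.92. Smad5 was 1.34-fold lower by its brightest probe set, while a dim one read 249.1 and 521.4, 2.09-fold lower.

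Ubiquitin enzymes and phosphatases (13 of 13 with a ratio) had a median of -0.32, with 6 above 0 and 7 below. Of the 6, Pmepa1, described below, had the highest log2 ratio, 0.98. Ldlrad4 was a bound that passed the floor in gamma/delta cells alone, which fixed its sign. Smurf1, a ubiquitin ligase that Smad7 brings to the receptors, read 177.0 in gamma/delta and 566.3 in CD8+ cells, at least 2.33-fold lower. Its other probe set lay under the floor on both arrays. Rnf111 (Arkadia), a ligase that removes Smad7, Ski and Skil, read 6933 in gamma/delta and 13119 in CD8+ cells on 1 probe set, a log2 ratio of -0.92. Ppm1a, a phosphatase described to act on Smad2 and Smad3, read 8826 and 14850 by its brightest probe set, a log2 ratio of -0.75, with others between -0.82 and 0.58. Usp9x read 9727 and 13030 by its brightest probe set (log2 ratio -0.42), while a dim one read 438.9 and 1773, 4.04-fold lower. In the other direction, Wwp1 had a log2 ratio of 0.07 by its brightest probe set, and another read 1341 and 701.3, 1.91-fold higher. Stub1 had 0.21 by its brightest, and its other probe set was at least 1.98-fold higher.

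Genes known to respond to TGF-beta in T cells or other cells gave 14 with a ratio of 22 on the array. Of the 14, 2 passed 2-fold towards gamma/delta cells and 0 towards CD8+ cells, against 5.82% and 3.93% of all genes. A count of 2 in 14 is too small to be set apart from that background. The median log2 ratio of the 14 was 0.37, against 0.03 over all genes. The list was not split by the direction of each response, so this median is no measure of pathway activity. Smad7 and Skil belong to this list too, and Smad7, which has no direction, counts at 0.64 by its brightest probe set. Id3 and Ldlrad4 count as bounds that passed the floor in gamma/delta cells alone, which fixed their sign, and Smad6 as one that passed it in CD8+ cells alone. The 2 past 2-fold were the integrin chains that pair as the receptor for E-cadherin, and they are the widest differences of the list. Itgae read 5383 in gamma/delta and 734.7 in CD8+ cells by 1447541_s_at, and 1835 and 520.3 by 1449216_at, so both of its probe sets were over 2-fold higher (log2 ratios 2.87 and 1.82). Itgb7 read 2741 and 701.9 on 1 probe set (log2 ratio 1.97).

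Pmepa1, a feedback inhibitor that keeps Smad2 and Smad3 from the receptor, read 2012 in gamma/delta and 1023 in CD8+ cells by 1422706_at, a log2 ratio of 0.98, just short of 2-fold. By 1422705_at it was at least 1.01-fold higher, close to the floor, and the other probe set lay under it. Id3, an inhibitor of E proteins, read 424.6 and 63.9, higher by at least 1.74-fold in gamma/delta cells. Nt5e, the ectonucleotidase CD73, read 595.4 and 974.7, a log2 ratio of -0.71. Tgif1, a corepressor of Smads, read 317.1 and 450.1, a log2 ratio of -0.51. Of the feedback genes, Skil and Pmepa1 were higher in gamma/delta cells by their brightest probe sets, and Smad7 had no direction. Tgif1 alone was lower, on 1 probe set, and none of the 4 reached 2-fold. Smad6 and Ldlrad4 of the same list were bounds close to 0 (log2 ratios -0.06 and 0.05).

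**Figure D5:**
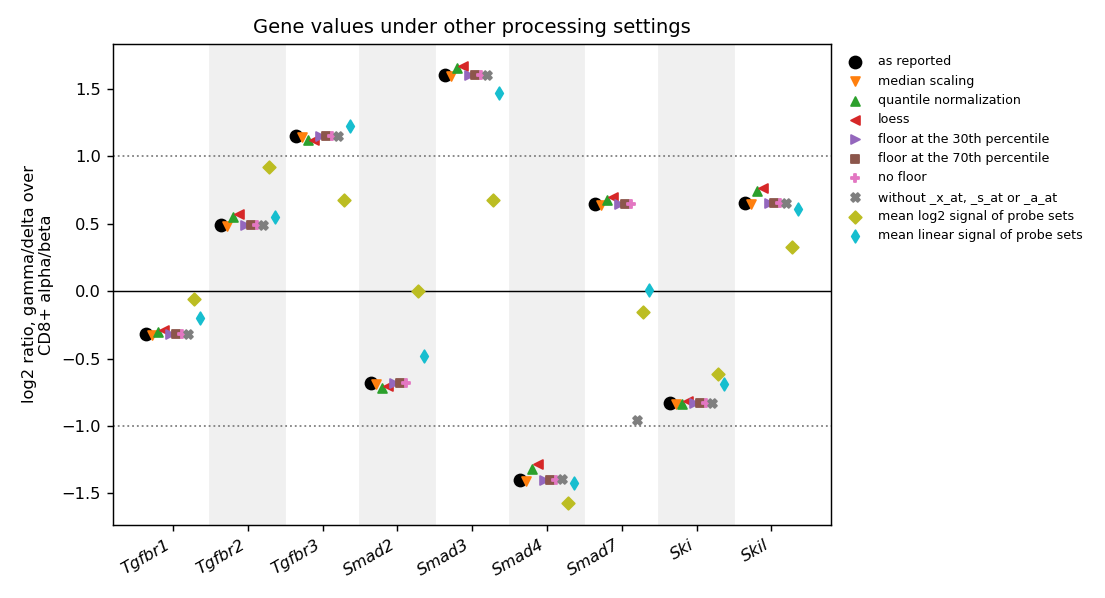
Log2 ratio of gamma/delta to CD8+ signal for the 9 member genes with a ratio (1 value a gene), as reported (black circle) and under other scalings, floors and probe set rules (other symbols), with dotted lines at 2-fold. Smad4 stayed between -1.57 and -1.28. Smad3 read 0.68 with log2 signals averaged and 1.47 with linear ones, Tgfbr3 at least 0.67 and 1.23, and Smad7 changed side with the probe set.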

How the data were processed

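RNA of 2 samples was read on 1-colour Affymetrix MOE430 2.0 arrays. The deposited intensity of each probe set is linear and was computed by the authors, who used MAS5 (Affymetrix Expression Console, version 1.0) according to the submitters' processing notes. Trimmed means (2% off each end) of 500.0 on both arrays show that the authors scaled them to 1 target. Genome build and detection calls are not given in the sources used here.

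Values were used as deposited. Symbols came from the platform annotation, and all 24 member probe sets matched RefSeq gene IDs of GRCm38.p6 with the same symbol. Probe sets with several symbols (932) or not listed (9211) name no gene here. Signals under the floor (243.3, the higher array median without controls) were raised to it before log2 ratios were taken in Python 3.11.15 with pandas 2.3.3. A ratio of 2-fold or more was called. Gene lists gave 1 value a gene, from the probe set brightest on average (log2). With 1 array a group no test was run. Precision is limited by the number of arrays. The code was tested on simulated data.

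The members, the lists and the rules were chosen with earlier results of these data known. All members were named with every probe set. Of the other lists, genes past 2-fold and up to 4 genes of the largest ratio were named. A few more were picked after their values were seen. These were Furin, Itgav, Tgfb3, Ltbp4, Nt5e, Tgif1, Smad5, Smad6, Ldlrad4, Usp9x, Wwp1, Stub1, Acvr1c, Bmpr1a and Fkbp1a. Alternatives were 3 scalings, 3 floors, 2 folds and 3 probe set rules. Averaging took the mean over all probe sets of a gene, of log2 or of linear signals, before the floor was applied.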

Additional observations from a re-analysis of the deposited data

How the results depend on the processing

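Of 80 member gene values under the alternatives, 75 moved by less than the spread of 0.50 between probe sets of a gene. Under the other floors no gene value could move, since the probe sets used lay above each floor, and median scaling shifted all alike. The 5 that moved more were Smad7 without probe sets whose names end in _a_at, _s_at or _x_at (-0.96), Smad7 (-0.16), Smad3 (0.68) and Smad2 (0.00) with the log2 signals of a gene's probe sets averaged, and Smad7 (0.01) with linear signals averaged. Both averages were added for the members after seeing the data, include signals under the floor, and have the floor applied to the mean. Smad2 had no ratio without such endings. No value at 2-fold changed sign. Tgfbr2 read 0.92 with log2 signals averaged. Dimmer probe sets could move with the floor. At the 30th percentile 1422019_at of Tgfbr2 had a log2 ratio of 1.13, and at the 70th 1422485_at of Smad4 had -1.48, both as bounds. Over all probe sets the scalings moved the median log2 ratio by under 0.1.

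Counts moved as follows. With no floor, 5 member probe sets were higher and 4 lower, where 17.4% and 16.2% of all probe sets were, and the spread was 1.36. The pathway genes then gave 7 higher and 6 lower and the responsive genes 5 and 3, where 16.0% and 14.3% of all genes did. At a 1.5-fold call the members gave 4 higher and 6 lower, against 14.6% and 13.9% of all probe sets. The pathway genes then gave 4 and 8 and the responsive genes 6 and 1, against 17.0% and 13.2% of all genes. At a 4-fold call the members gave 0 and 0, against 0.47% and 0.19% of all probe sets. The pathway genes then gave 0 and 0 and the responsive genes 1 higher and 0 lower, against 0.68% and 0.18% of all genes. Pathway genes gave 5 higher with the floor at the 30th percentile, 1 lower with it at the 70th, 0 higher without the endings named above, and 0 higher and 0 lower with log2 signals averaged. The causes were not tested, beyond the lower or higher bar that each call sets. Leaving out an array was not run, since each group has 1, and no paired analysis was possible because no replicate exists. Signals near the floor limit what Tgfb1 and the dim probe sets can show.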
